A study of Homo sapiens with 6 samples.

Results

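The 9 genes described here encode enzymes that commit glucose to glycolysis: the hexokinases HK1 and HK2, glucose phosphate isomerase (GPI), the 6-phosphofructokinases PFKL, PFKM and PFKP, and the bifunctional enzymes PFKFB2, PFKFB3 and PFKFB4. They were chosen by gene symbol, with earlier results of these data known. Their counts and median, set beside those of all clusters, thus describe these genes and are not independent support. Each of the 9 genes had exactly 1 transcript cluster with that symbol alone, among 15949 genes and 18708 clusters in all. A transcript cluster is the group of probe sets that covers a gene, and each array gave it 1 expression value in log2 units. The cells were PLC/PRF/5, an established line from a human hepatocellular carcinoma, in which small interfering RNA (siRNA) was used to ask what depends on the splicing factor SLU7. In the study, 3 arrays held RNA from cells given siRNAs against SLU7 (siSLU7) and 3 held RNA from cells given a control siRNA against an irrelevant target (siGL). All 6 were harvested 48 h after lipid transfection, in serum-containing medium, with no untransfected group. The labels do not say whether replicates were separate cultures, so the spread behind each test may be that of repeat handling alone.

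Hexokinases trap glucose in the cell as glucose 6-phosphate, which GPI turns into fructose 6-phosphate. Phosphofructokinase then adds the next phosphate in the main committed step of glycolysis, as a tetramer of liver-type (PFKL), muscle-type (PFKM) or platelet-type (PFKP) subunits. The PFKFB enzymes make and remove fructose 2,6-bisphosphate, the strongest allosteric activator of phosphofructokinase. Liver tumour cells commonly express HK2, and HK2, PFKP, PFKFB3 and PFKFB4 are known targets of hypoxia-inducible factor.

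Promoter windows of 4 of these genes are shown because a shared regulator has been described for several of them and because 3 of the 4 (HK2, PFKP and PFKL) lay apart between the groups while PFKFB4 did not. The sequences are from RefSeq (GRCh38.p14), 300 bases each, running from 250 before to 50 after an annotated start, and each is the window of its gene with the most matches. Capitals mark ACGTG or GCGTG, the core of the hypoxia response element, read on either strand (CACGT or CACGC on the printed strand).
HK2 (chr2:74834920-74835219, + strand): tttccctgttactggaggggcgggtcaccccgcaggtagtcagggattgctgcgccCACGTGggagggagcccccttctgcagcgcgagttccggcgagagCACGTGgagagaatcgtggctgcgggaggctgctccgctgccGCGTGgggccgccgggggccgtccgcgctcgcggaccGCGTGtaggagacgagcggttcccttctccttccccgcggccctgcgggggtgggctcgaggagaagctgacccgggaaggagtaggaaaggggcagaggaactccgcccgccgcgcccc
PFKP (chr10:3104359-3104658, + strand): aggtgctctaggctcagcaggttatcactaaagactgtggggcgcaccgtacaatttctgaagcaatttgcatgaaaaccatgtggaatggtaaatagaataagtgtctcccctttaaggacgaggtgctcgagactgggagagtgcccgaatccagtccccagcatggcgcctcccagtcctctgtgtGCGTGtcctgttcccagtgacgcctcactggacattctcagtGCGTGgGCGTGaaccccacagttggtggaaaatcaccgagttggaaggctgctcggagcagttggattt
PFKL (chr21:44299803-44300102, + strand): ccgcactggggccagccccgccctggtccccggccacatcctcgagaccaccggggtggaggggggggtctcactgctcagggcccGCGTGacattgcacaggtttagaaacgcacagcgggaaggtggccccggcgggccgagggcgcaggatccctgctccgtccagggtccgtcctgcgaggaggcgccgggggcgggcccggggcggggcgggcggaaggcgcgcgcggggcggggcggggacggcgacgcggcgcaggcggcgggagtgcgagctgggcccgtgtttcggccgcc
PFKFB4 (chr3:48556754-48557053, - strand): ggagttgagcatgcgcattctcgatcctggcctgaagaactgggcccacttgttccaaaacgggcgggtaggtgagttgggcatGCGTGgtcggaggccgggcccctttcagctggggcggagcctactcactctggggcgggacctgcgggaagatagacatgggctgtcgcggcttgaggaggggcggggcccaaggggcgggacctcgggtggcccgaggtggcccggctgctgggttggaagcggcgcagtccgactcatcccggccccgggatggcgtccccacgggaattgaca
The HK2 window held 6 matches, of which 4 come from a pair of CACGTG palindromes that each count on both strands. The PFKP window held 3 matches and those of PFKL and PFKFB4 held 1 each. The other PFKP windows, from chr10:3067720 to 3069238, held 0, 0 and 1. Among genes not shown, PFKFB3, which overlapped between groups, had up to 2 matches in a window. HK1 and GPI, which lay apart, and PFKM had at most 1. The 4 genes were picked by outcome, so their counts do not compare lower genes with the rest. In the table, 8 of the 9 genes had windows (PFKFB2 had none there), and 13 of their 25 windows held a match, against 48.4% of all 35116 windows. All 8 had a match in at least 1 window, against 52.4% of the 27305 genes in the table, a count that grows with the number of windows a gene has. A match is a description of the letters and not evidence of binding, and genes on both sides of the comparison carried one.

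Medians of the 6 arrays ran from 6.61 to 6.63 log2 units and lower quartiles from 4.86 to 4.98. SLU7 had 5.84, 5.58 and 6.21 log2 units in siSLU7 replicates 1 to 3, against 7.89, 7.01 and 7.24 in the controls, a difference of -1.51 ± 0.31 (SE), or 35.2% of the control level (limma adjusted p = 0.0783). The largest component of variation over all clusters set siSLU7 replicate 1 and control replicate 2, an array of each group, against the remaining 4 arrays, so each difference of the 9 genes is also given within that pair (1 array against 1, with no error) and within the other 4. Of 9 measured hepatocyte markers, 5 (APOA1, APOB, FGB, KRT8 and KRT18) were brighter than the median cluster, while ALB was dim in both groups (means of 3.07 in siSLU7 and 3.87 in control arrays). All 9 of these markers had a lower mean in siSLU7 arrays, against 49.5% of all clusters, and 5 of them lay apart lower, against 9.21%. None passed the test, and 3 had a limma unadjusted p under 0.05 and were lower, against 6.54% of all clusters. Their median difference was -0.58 log2 units, against 0.00 for all clusters. The largest were -1.07 for FGB, -0.93 for APOA1 and -0.80 for both AFP and ALB. The smallest were -0.24 for KRT8, -0.19 for KRT18 and -0.06 for TTR. The mean of the 9 markers ran from 7.90 to 8.10 log2 units in siSLU7 arrays and from 8.39 to 8.66 in controls, without overlap, so the markers were lower in the same arrays as HK1, HK2, GPI, PFKL and PFKP, and their part in the results was not tested. None of 3 muscle markers passed the test, and the group means of CKM and MYH7 were below the lower quartile of every array. The third, ACTA1, was brighter than the median cluster, with means of 7.86 in siSLU7 and 8.07 in control arrays. Of 4 blood cell markers none was brighter than the median cluster. Of 3 endothelial markers 1 was, PECAM1, with means of 6.82 in siSLU7 and 7.05 in control arrays. All 3 had a lower mean in siSLU7 arrays, and CDH5 lay apart lower. Of 4 fibroblast and stellate cell markers 1 was brighter than the median cluster, PDGFRB, with means of 8.24 and 8.36, and 2 had a lower mean. No marker of these lists passed the test. In bulk RNA, fewer cells of a kind and less RNA per cell cannot be told apart.

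Among the genes of the flux-carrying enzymes, all but PFKM had lower values in siSLU7 cells than in any control, which no PFKFB gene had. HK1, HK2, GPI, PFKL and PFKP were each lower in all 3 siSLU7 arrays than in every control array, with differences from -1.12 to -2.45 log2 units, while PFKM and the 3 PFKFB genes overlapped between groups. Groups lay apart in the lower direction for 5 of 9 genes, against 9.21% of all clusters. The same 5 had a limma unadjusted p under 0.05 and were lower, against 6.54% of all clusters. PFKP alone passed the test over all clusters (limma, adjusted p under 0.05), against 0.299% of all clusters called lower and 0.433% called in either direction. The median difference of the 9 genes was -1.12 log2 units, and that of all clusters was 0.00. The median was -0.96 within the pair that stands apart and -1.19 in the remaining 4 arrays.

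**Figure D1:**
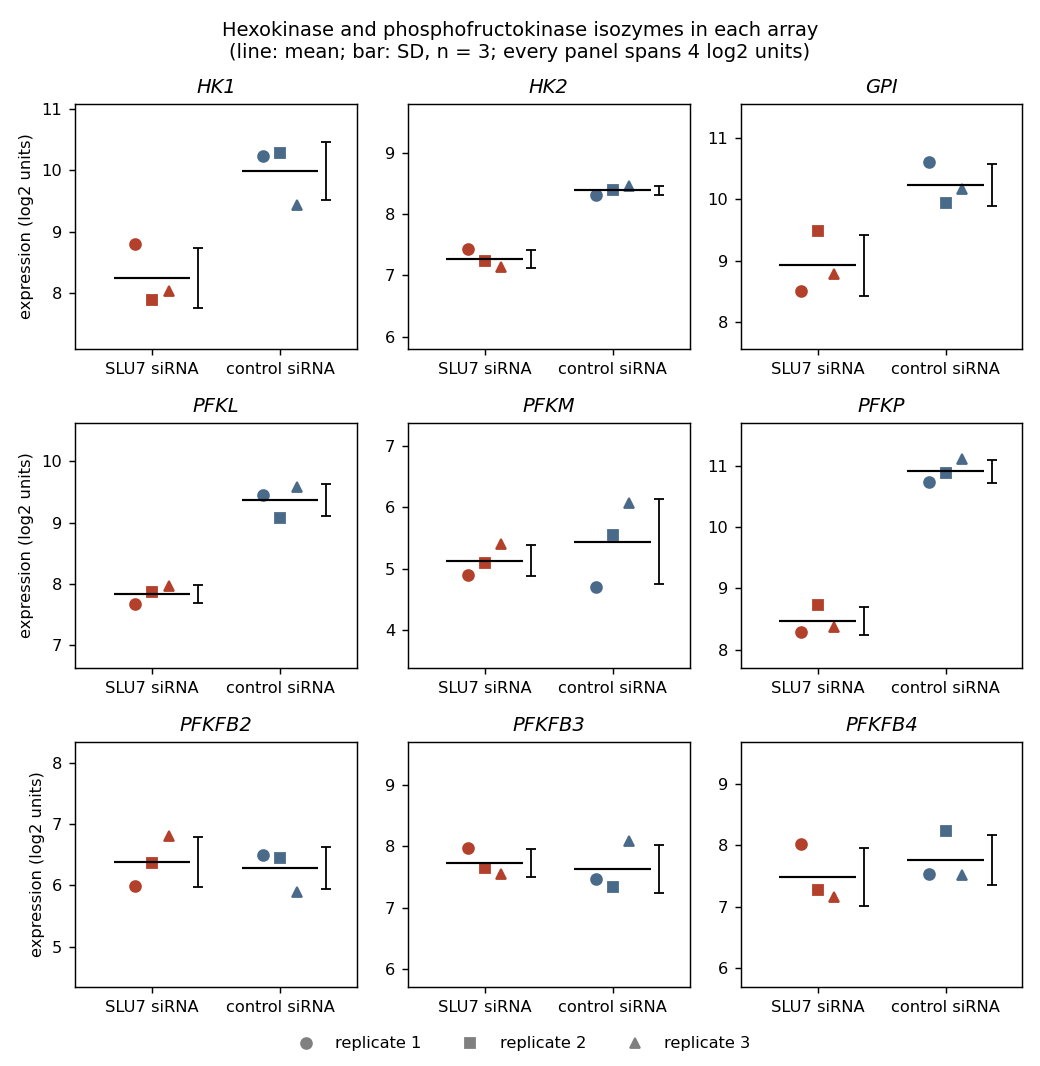
Expression of the 9 genes in log2 units in each array, with siSLU7 arrays on the left and control arrays on the right of each panel. Points are arrays with their replicate number, lines are means and bars SD (n = 3). HK1, HK2, GPI, PFKL and PFKP show no overlap between groups, with PFKP between 8.29 and 8.72 in siSLU7 arrays and between 10.74 and 11.11 in controls.

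The hexokinases were both lower. HK1, the form found in most tissues and bound to mitochondria, had 8.80, 7.89 and 8.04 log2 units in siSLU7 replicates 1 to 3, against 10.24, 10.29 and 9.44 in control replicates 1 to 3. The groups did not overlap, and the highest siSLU7 array and the lowest control array were 0.64 log2 units apart. The difference was -1.75 ± 0.35 (SE), or 3.36-fold lower (95% interval 1.92 to 5.87), with a limma adjusted p of 0.0731, which misses the threshold. It was -1.49 in the pair that stands apart and -1.88 in the remaining 4.

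HK2, the inducible form typical of muscle, fat and tumours, had 7.43, 7.24 and 7.14 log2 units in siSLU7 arrays, against 8.31, 8.38 and 8.46 in controls. Replicates were tight, with an SD of 0.14 in siSLU7 arrays and of 0.07 in controls (n = 3 each), and no other of the 9 genes had a smaller control SD. All siSLU7 arrays lay below all controls, by a gap of 0.89. The difference was -1.12 ± 0.23 (SE), or 2.17-fold lower (interval 1.49 to 3.14), and its limma adjusted p was 0.0801. The pair that stands apart gave -0.96 and the remaining 4 arrays -1.19.

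GPI, the isomerase between the hexokinase and phosphofructokinase steps, had 8.51, 9.48 and 8.79 log2 units in siSLU7 arrays, against 10.61, 9.94 and 10.18 in controls. The groups lay apart by 0.45, the smallest gap among the 5 genes that did not overlap, and siSLU7 replicate 2 was the highest of its group. The difference was -1.31 ± 0.33 (SE), or 2.49-fold lower (interval 1.48 to 4.19), and did not pass the test (limma adjusted p = 0.126). The pair gave -1.42 and the remaining 4 arrays -1.26.

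Among the 6-phosphofructokinases, PFKP fell, PFKL was lower without passing the test, and PFKM overlapped between groups. PFKP, the platelet-type subunit, had 8.29, 8.72 and 8.37 log2 units in siSLU7 replicates 1 to 3, against 10.74, 10.88 and 11.11 in controls. The gap between the groups, 2.01 log2 units, exceeded the whole range of either group (0.43 in siSLU7 and 0.37 in control arrays). PFKP fell by 2.45 log2 units (SE 0.25), to 18.4% of the control level, which is 5.45-fold lower (95% interval 3.64 to 8.15). Its limma adjusted p was 0.0316, and by unadjusted p it ranked 3 among the 18708 clusters. For PFKP, as for the other 4 genes whose groups lay apart, the exact permutation test (two-sided) reached p = 0.1, its lower limit with 3 arrays in each group. The difference was -2.59 in the pair that stands apart and -2.37 in the remaining 4. The call needed all 6 arrays: the limma adjusted p was 0.0754, 0.135 and 0.0886 without siSLU7 replicates 1, 2 and 3, and 0.147, 0.0591 and 0.180 without control replicates 1, 2 and 3, where no cluster of the table passed.

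PFKL, the liver-type subunit, had 7.68, 7.86 and 7.96 log2 units in siSLU7 arrays, against 9.45, 9.07 and 9.58 in controls. The groups did not overlap and lay 1.11 apart. The difference was -1.53 ± 0.26 (SE), or 2.89-fold lower (interval 1.93 to 4.33), with a limma adjusted p of 0.0515, just outside the threshold. With quantile normalization PFKL passed (difference -1.52, adjusted p = 0.0484, 0.38% of all clusters called lower). The pair gave -1.39 and the remaining 4 arrays -1.60.

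PFKM, the muscle-type subunit, had 4.90, 5.08 and 5.40 log2 units in siSLU7 arrays, against 4.69, 5.54 and 6.06 in controls. Control replicate 1 was the lowest of all 6 arrays and control replicate 3 the highest, so the control group enclosed the siSLU7 group. The values sat near the lower quartile of the arrays, a dim range that leaves the size uncertain. The difference was -0.31 ± 0.37 (SE), with an interval from -1.15 to 0.54 (limma adjusted p = 0.833), and without control replicate 3 it was 0.0084. The pair gave -0.64 and the remaining 4 arrays -0.14.

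The bifunctional enzymes overlapped between groups in all 3 genes, and each interval spans 0, from a lower end between -1.04 and -0.56 to an upper end between 0.49 and 0.81 log2 units. PFKFB2, the heart-type form, had 5.99, 6.37 and 6.81 log2 units in siSLU7 arrays, against 6.50, 6.45 and 5.89 in controls. Its difference was 0.11 ± 0.31 (SE; interval -0.60 to 0.81, limma adjusted p = 0.948). Its sign turned in the pair that stands apart (-0.46, and 0.39 in the remaining 4), and it was -0.10 without siSLU7 replicate 3 and -0.09 without control replicate 3.

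PFKFB3, an inducible form with high kinase over phosphatase activity, had 7.98, 7.65 and 7.54 log2 units in siSLU7 arrays, against 7.47, 7.34 and 8.08 in controls. Control replicate 3 was the highest of the 6 arrays and control replicate 2 the lowest. The difference was 0.10 ± 0.29 (SE; interval -0.56 to 0.76, limma adjusted p = 0.951), 0.64 within the pair and -0.18 within the other 4, so its direction is not settled. PFKFB4, first described in testis and induced by hypoxia in tumours, had 8.03, 7.28 and 7.15 log2 units in siSLU7 arrays, against 7.54, 8.24 and 7.51 in controls. The 2 highest values were those of siSLU7 replicate 1 and control replicate 2, the arrays that stand apart. The difference was -0.27 ± 0.34 (SE; interval -1.04 to 0.49, limma adjusted p = 0.836), with -0.21 in the pair and -0.31 in the remaining 4 arrays.

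**Figure D2:**
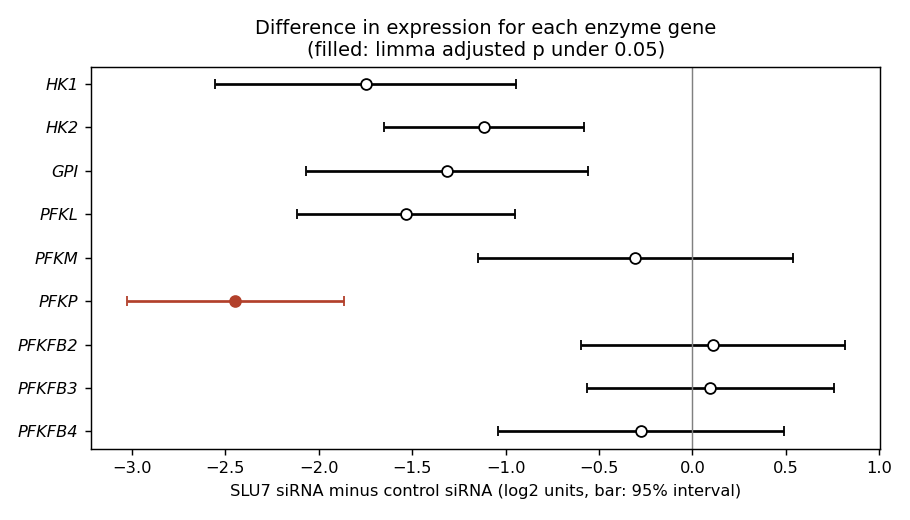
Difference in expression, siSLU7 minus control, in log2 units for the 9 genes, with 95% intervals from limma. The filled point, PFKP, is the only gene with an adjusted p under 0.05. The intervals of HK1, HK2, GPI, PFKL and PFKP lie below 0 and those of PFKM and the PFKFB genes span it.

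Whether isozymes of an enzyme changed to different extents was asked within arrays. For this 8 pairs were taken, all of isozymes except PFKP and GPI, which act at neighbouring steps. In each pair, the log2 value of a gene was subtracted from that of the other in the same array. Such a value compares changes and not the amounts of the 2 mRNAs, since probes differ in brightness. PFKP minus PFKL was 0.61, 0.86 and 0.41 log2 units in siSLU7 replicates 1 to 3, against 1.29, 1.82 and 1.53 in controls. The groups did not overlap: the difference was -0.91 ± 0.20 log2 units (SE; 95% interval -1.47 to -0.36, from the pooled SD), with PFKP the lower relative to PFKL in siSLU7 arrays. PFKP minus PFKM changed by -2.14 ± 0.35 (interval -3.12 to -1.15), PFKM minus PFKL by 1.22 ± 0.42 (interval 0.062 to 2.39) and PFKP minus GPI by -1.13 ± 0.31 (interval -2.0 to -0.26), each without overlap. PFKM was not above the lower quartile in every array, which leaves the size of both differences with PFKM uncertain. PFKM minus PFKL also moved to 0.81 without control replicate 1 and to 0.75 within the pair that stands apart. In these 4 pairs the exact two-sided permutation p was 0.1, the smallest possible, and 0.2 after Benjamini-Hochberg adjustment over the 8 pairs. That test cannot reach 0.05 with 3 arrays in each group. The 95% intervals of all 4 lie on 1 side of 0, but they are not adjusted over the pairs. Each of the 4 pairs also shares a gene with others of the 4, so they are not separate results.

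The other 4 pairs overlapped between groups. HK2 minus HK1 was -1.38, -0.65 and -0.90 log2 units in siSLU7 arrays, against -1.93, -1.91 and -0.99 in controls, a change of 0.63 ± 0.38 (SE; interval -0.41 to 1.68, exact permutation p = 0.2, adjusted 0.32). The HK1 difference was the larger in size, by an amount within the spread between replicates. PFKFB3 minus PFKFB2 changed by -0.012 (interval -1.56 to 1.53), PFKFB4 minus PFKFB2 by -0.38 (interval -1.90 to 1.14) and PFKFB4 minus PFKFB3 by -0.37 (interval -1.61 to 0.87). Those intervals are too wide to show that the PFKFB genes behaved alike.

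**Figure D3:**
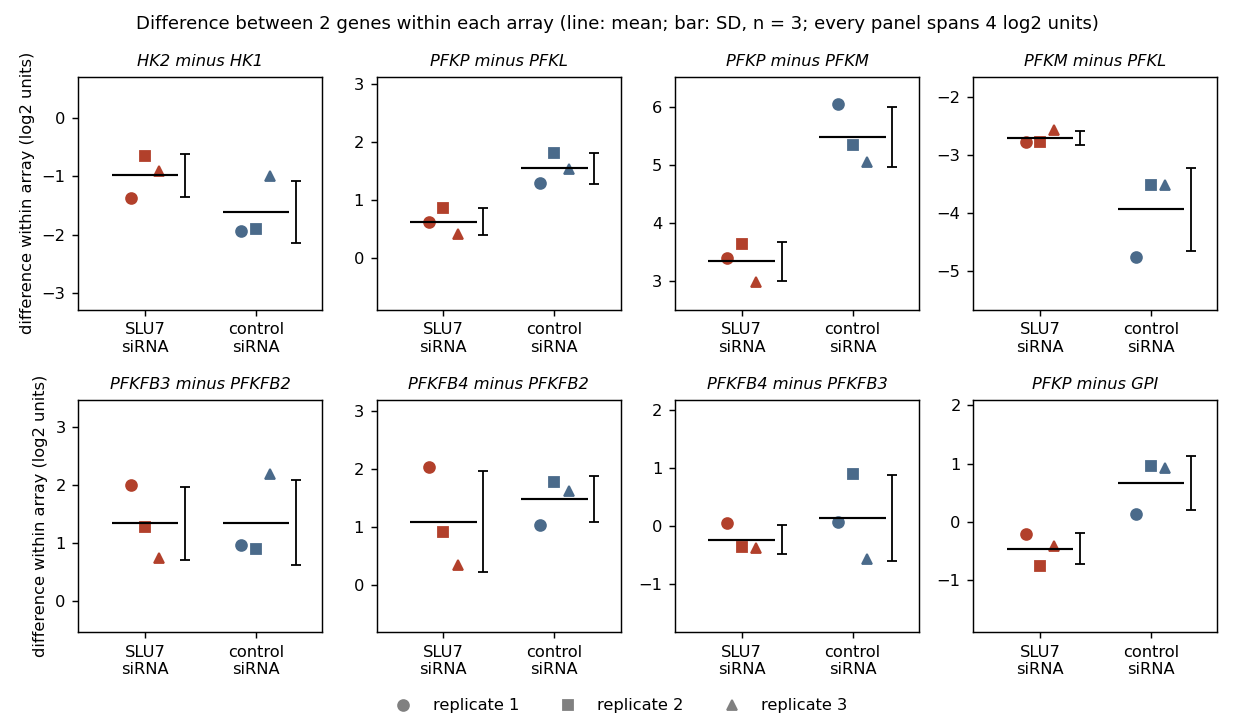
Difference between 2 genes within each array, in log2 units, for 8 pairs, with siSLU7 arrays on the left and control arrays on the right. Points are arrays, lines are means and bars SD (n = 3). PFKP minus PFKL, PFKP minus PFKM, PFKM minus PFKL and PFKP minus GPI do not overlap between groups.

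Genes next to these steps were read from the same fit in 5 lists. The lists too were chosen with earlier results of these data known, so the shares below are description only. Of 12 measured genes of glucose entry and other hexose kinases, none passed. A limma unadjusted p under 0.05 was found in 2, both lower, against 6.54% of all clusters in that direction and 13.1% in either. Negative differences were found in 10 of the 12, against 49.5% of all clusters, and 3 lay apart lower, against 9.21%, with a median of -0.47 log2 units. The largest differences were in HKDC1, a hexokinase-like gene that is the neighbour of HK1 on chromosome 10, and in KHK, which phosphorylates fructose. HKDC1 had 2.97, 4.71 and 4.88 log2 units in siSLU7 arrays, against 7.29, 5.83 and 7.22 in controls, a difference of -2.59 ± 0.58 (SE, limma adjusted p = 0.0921). All its siSLU7 values were dim, which leaves the size uncertain. KHK had 4.52, 5.98 and 6.92 log2 units in siSLU7 arrays, against 8.43, 6.85 and 7.83 in controls, with overlap and a difference of -1.90 ± 0.62 (limma adjusted p = 0.224). SLC2A1, the main glucose carrier of tumour cells, overlapped between groups at -0.37 ± 0.26 (limma adjusted p = 0.655), and it was singled out after its value was seen.

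Genes listed as opposing the hexokinase and phosphofructokinase steps had a median of -0.09 over 7 genes. They include SLC37A4, a transporter, and the bifunctional enzyme PFKFB1, which overlapped between groups at -0.03. None of the 7 passed (1 of 7 at a limma unadjusted p under 0.05, against 13.1% of all clusters). TIGAR, a phosphatase that lowers fructose 2,6-bisphosphate, was the only gene of the list whose groups lay apart, with 8.84, 9.15 and 9.42 log2 units in siSLU7 arrays against 8.30, 7.60 and 8.81 in controls. Its difference of 0.90 ± 0.35 (SE) did not pass (limma adjusted p = 0.315), and groups lay apart in the higher direction in 9.64% of all clusters. G6PC3, a glucose 6-phosphatase, differed by -0.34 ± 0.32 (limma adjusted p = 0.757).

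Lower glycolysis had 1 call in 13 measured genes, against 0.299% of all clusters called lower, with a median of -0.35 and 12 differences below 0, against 49.5% of all clusters. PGK1, phosphoglycerate kinase, fell by 1.63 log2 units (SE 0.26), with 10.24, 10.41 and 10.36 in siSLU7 arrays against 12.18, 12.12 and 11.61 in controls (limma adjusted p = 0.0485), a call that was lost without any 1 array. PGK1 was at -1.88 in the pair that stands apart and -1.51 in the remaining 4. In that list 7 of 13 genes lay apart lower, against 9.21% of all clusters. A limma unadjusted p under 0.05 was found in 3 of the 13, all lower, against 6.54% of all clusters in that direction. Branches from the hexose phosphates had a median of -0.22 over 18 genes with none passing. A limma unadjusted p under 0.05 was found in 3 of the 18, all lower, against 6.54% of all clusters in that direction and 13.1% in either. Differences were below 0 in 15 of the 18, against 49.5% of all clusters, and 5 lay apart lower, against 9.21%. PGM1, which links glucose 6-phosphate to glycogen, was at -1.27 ± 0.24 (limma adjusted p = 0.0629) and MPI, which leads to mannose, at -0.91 ± 0.31 (limma adjusted p = 0.253), both without overlap between groups. Of 8 measured regulators none passed, with a median of -0.14. A limma unadjusted p under 0.05 was found in 1, which was lower, against 6.54% of all clusters in that direction and 13.1% in either. Differences were below 0 in 6 of the 8, against 49.5% of all clusters. EPAS1 and ARNT were the 2 that lay apart lower, against 9.21%. EPAS1, the HIF-2 alpha subunit, had 9.05, 9.52 and 9.94 log2 units in siSLU7 arrays against 11.13, 10.28 and 10.83 in controls (-1.24 ± 0.33, limma adjusted p = 0.148), while its partner ARNT was at -0.33 ± 0.25 (limma adjusted p = 0.676). HIF1A, singled out after its value was seen, was at -0.08 ± 0.28 (limma adjusted p = 0.959).

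**Figure D4:**
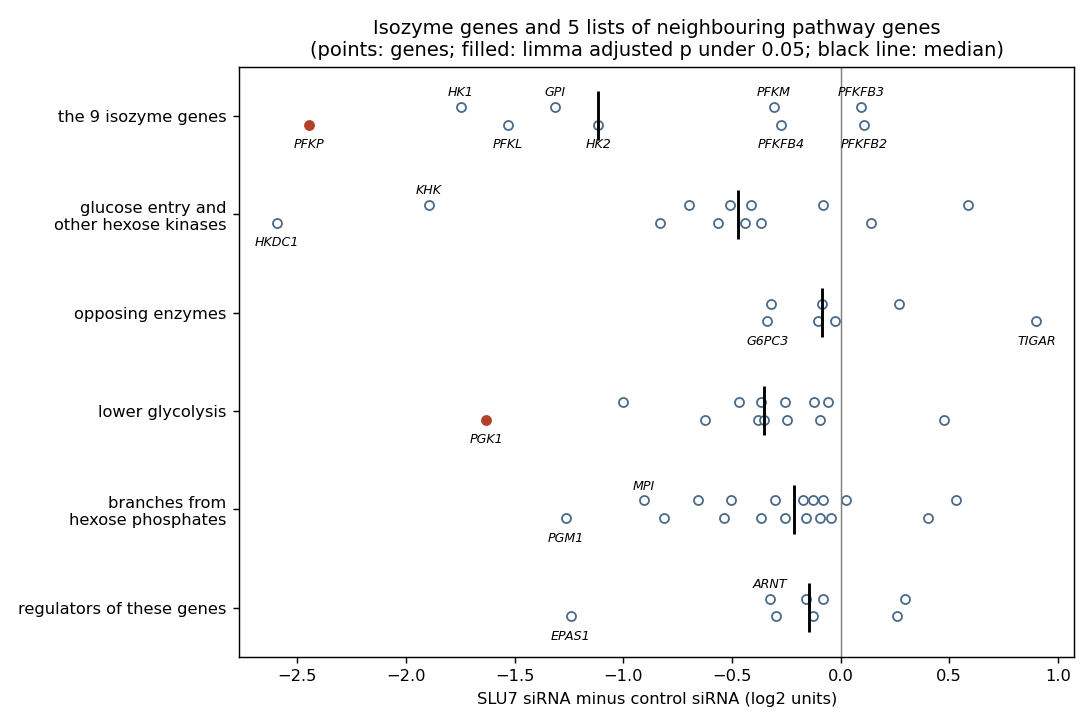
Difference in expression, siSLU7 minus control, in log2 units, for the 9 genes and 5 lists of neighbouring pathway genes. Each point is a gene, black lines are list medians and filled points have a limma adjusted p under 0.05, which holds for PFKP and PGK1. The 9 genes have a median of -1.12, and the lists have medians from -0.47 to -0.09.

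The clusters whose values over the 6 arrays were most like those of PFKP, by Pearson r among 8461 brighter clusters with 1 symbol, were ORAI3, a calcium channel subunit (r = 0.999), SCD, the stearoyl-CoA desaturase (0.999), MMD (0.998), PCK2, the mitochondrial phosphoenolpyruvate carboxykinase (0.996), and CYFIP2, an actin regulator (0.996). Their differences lay between -2.27 and -1.25 log2 units. With 6 arrays, 189 clusters had r above 0.95 with PFKP, 47 with HK1 and 181 with PFKFB4. For PFKP the points also share the group difference, and all such values describe a profile only. HK1 was followed most closely by TECR, CPEB3, PRKCSH, RNASEK and IER3 (r from 0.982 to 0.998), and IER3 had the largest difference of the 5, at -1.03. PFKFB4 was followed by B4GALT3, NDST2, RNF24, MBNL3 and EPB41L4B (r from 0.995 to 0.999), each with its highest 2 values in siSLU7 replicate 1 and control replicate 2. The PFKFB4 profile thus followed the arrays that stand apart, whereas PFKP and HK2 followed the groups, with r = 0.978 between those 2 genes.

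The calls for the 5 genes that lay apart changed with the settings of the test, while their direction held in each setting run. All 5 passed without the dimmer clusters (2.97% of clusters called lower), with an intensity trend and robust shrinkage (1.43%), and with the arrays that stand apart as a block (2.28%). HK1, HK2, PFKL and PFKP passed with array weights (1.89%). None of the 9 passed with the replicate number as a block, in the other 4 arrays alone, or without any 1 array. Each value summarises all core probe sets of a gene, so a change in exon use after loss of a splicing factor can appear as a change in level.

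**Figure D5:**
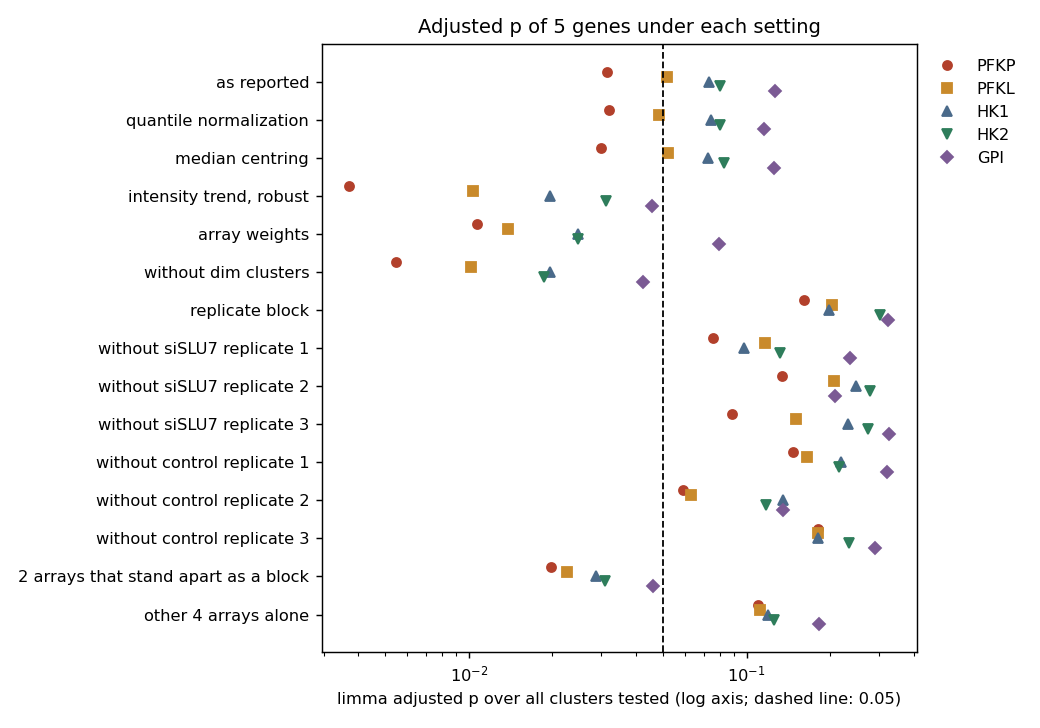
Limma adjusted p, on a log axis, of HK1, HK2, GPI, PFKL and PFKP under the reported fit and 14 other settings, with a dashed line at 0.05. PFKP lies left of the line in the reported fit and right of it, at 0.0591 to 0.180, without any 1 array. It also lies right of the line with the replicate number as a block (0.161) and in the other 4 arrays alone (0.110).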

How the data were processed

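Per the labels, total RNA was converted to sense cDNA, labelled with biotin and read on exon arrays (Affymetrix Human Exon 1.0 ST), each sample on an array of its own. The deposited log2 values (scale inferred from their range, 0.96 to 14.5) hold 1 value per transcript cluster of the aroma.affymetrix core chip definition, per the labels; the submitters' processing notes name RMA. The array annotation's build is not given in the sources used here. GEO's platform annotation gave 1 gene symbol to 16287 of 18708 clusters, and 2179 older symbols were updated through RefSeq (GRCh38.p14, names only).

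Groups (from the sample titles) were compared with limma 3.58.1 in R 4.3.3 (lmFit and eBayes without a trend, group as the only term, no filter), with Benjamini-Hochberg adjustment over all clusters at 0.05. Intervals are 95% intervals of that fit, and folds are back-transformed log2 differences. Gene pairs used exact permutation tests. No arrays were copies: pairs shared at most 9 exact values. The typical standard error was 0.31 log2 units, and the number of arrays limits the precision.

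The genes named were all 9 members, SLU7, the called genes of each list (or the 2 largest differences where none was called) and the 5 most similar profiles of PFKP, HK1 and PFKFB4. Cell type markers and, outside that rule, SLC2A1, HIF1A, SLC37A4 and PFKFB1 were named as well. Members and lists were chosen with earlier results of these data known. Alternatives were a replicate block, median centring, quantile normalization, a filter on dim clusters, robust shrinkage with an intensity trend, array weights, gene means, a threshold of 0.01 and omission of each array in turn. Fits with the pair that stands apart as a block or left out, and values within it, were added after seeing the data.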

Additional observations from a re-analysis of the deposited data

How the results depend on the processing

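HK1, HK2, GPI, PFKL and PFKP kept a negative difference under every alternative run. Of 18708 clusters 81 were called, and 1 of the 9 genes (PFKP) and 1 of 58 pathway genes (PGK1). With the replicate number as a block, all 3 counts were 0 (1845 clusters at an unadjusted p under 0.05 in limma), with PFKP at -2.45 and an adjusted p of 0.161. The deviations of same-numbered arrays from their group means correlated at -0.38, -0.31 and 0.14. No siSLU7 array correlated best with the control array of its own number. Those deviations also hold the split of the pair that stands apart, so they cannot show whether same-numbered arrays shared a batch. Without any 1 array the counts were 0 in every case (1833 to 2573 clusters at an unadjusted p under 0.05), with PFKP from -2.58 to -2.35. In the other 4 arrays alone they were 0 as well (2922 at an unadjusted p under 0.05), with PFKP at -2.37 (adjusted p = 0.110). At a threshold of 0.01, 0 clusters and 0 of the 9 genes passed, PFKP (-2.45) included.

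Without the dimmer clusters, 474 of 9354 clusters, 5 of the 7 genes left and 2 of the 37 pathway genes left were called. PFKM and PFKFB2 were filtered out. The median of the 7 genes left was -1.31, with their own differences unchanged. An intensity trend with robust shrinkage gave 441, 5 and 3, array weights 575, 4 and 4, and a block marking the pair that stands apart 783, 5 and 5. That block was read from these same arrays, so its p-values are likely too small. Quantile normalization gave 2 of the 9 genes, PFKL (-1.52) joining PFKP. Among these settings, HK1 passed at -1.75 and, with array weights, -1.77; HK2 at -1.12 and -1.17; PFKL at -1.53 and -1.60; and GPI at -1.31, though not with array weights. The cause was not tested.

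Leaving out each array gave ranges of -2.03 to -1.57 for HK1, -1.19 to -1.05 for HK2, -1.59 to -1.11 for GPI, -1.68 to -1.42 for PFKL, -0.68 to 0.0084 for PFKM, -0.10 to 0.31 for PFKFB2, -0.05 to 0.32 for PFKFB3 and -0.54 to -0.038 for PFKFB4, and the median of the 9 ran from -1.13 to -1.05. The sign turned for PFKM without control replicate 3 (0.0084), for PFKFB2 without siSLU7 replicate 3 (-0.10), without control replicate 3 (-0.089) and within the pair (-0.46), and for PFKFB3 with array weights (-0.12), without siSLU7 replicate 1 (-0.032), without control replicate 2 (-0.050) and in the other 4 arrays (-0.18). PFKFB3 minus PFKFB2 turned without siSLU7 replicate 2 (0.015), without siSLU7 replicate 3 (0.29), without control replicate 3 (0.41) and within the pair (1.10), with a range of -0.34 to 0.41; PFKFB4 minus PFKFB3 turned without control replicate 2 (0.012; range -0.72 to 0.012), and PFKFB4 minus PFKFB2 within the pair (0.25). The other 5 pairs kept their direction, though PFKM minus PFKL moved from 1.22 to 0.81 without control replicate 1 and to 0.75 within the pair. Gene means changed nothing, since each of the 9 genes has 1 cluster.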
